A study of Mus musculus with 15 samples.

Results

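Mouse hepatocytes cultured as a monolayer on tissue culture dishes for 4 h (TCD_4h, 3 arrays) were compared with freshly isolated hepatocytes (t0, 3 arrays), which makes 6 of the 15 arrays of the series. Members were all Affymetrix probe sets with 1 gene symbol in the platform annotation, 34945 of the 45101 probe sets of the table. Of these, 22096 stood off the array background, and they represented 12423 genes of the 18193 with such a probe set, 1 probe set for each gene. The cells of both groups were primary hepatocytes of male C57BL/6 mice, and no genetic change, drug or other agent is named for either group in the labels. Primary hepatocytes are liver parenchymal cells taken from the animal and not passaged. The labels count 3 independent biological replicates for each group. The other groups, used here to estimate the spread and for values beside the main ones, were hepatocytes kept as 3D aggregates in rotating wall vessels (RWV) for 4 or 24 h and monolayers kept for 24 h, with 3 arrays each.

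The deposited values are on a log2 scale and are relative to the median of the 3 fresh arrays of each probe set, so that 1 fresh array of every probe set reads 0. Values therefore give differences between arrays and hold no expression level, and levels of different genes could not be set side by side. Weak probe sets sit near a lower limit on such a scale, so a very large change is large in log2 units without being a precise fold. In RNA of whole cultures, fewer cells of a type and less RNA per cell cannot be told apart. The 18 probe sets of the hybridisation controls had a median of 1.08 on TCD_4h replicate 2, against -0.0528 and 0.116 on TCD_4h replicates 1 and 3 and -0.134 to 0.181 on the fresh arrays. That array also had the lowest array weight, at 0.171 against 0.439 to 3.23 for the other 5 arrays compared. The main counts against fresh cells are therefore given with and without it. The 3' minus 5' difference of the Actb control probe sets, a sign of RNA integrity and labelling, was -0.2, -0.195 and -0.228 in TCD_4h, against 0, -0.104 and -0.0539 in fresh cells. For the Gapdh control probe sets it was 0.00114, 0.0745 and -0.0256 in TCD_4h, against 0, -0.0132 and -0.0708 in fresh cells, which overlap. The part of RNA integrity in the results was not tested.

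Hepatocytes in the liver are held in place by matrix and by neighbouring cells and are exposed to hormones of the portal blood. Isolation with collagenase and plating remove these contacts, and early genes of stress, wounding and growth are known to respond within minutes to hours, while the genes of differentiated liver function usually decline more slowly in monolayers. Immediate early genes encode short-lived transcription factors, and their mRNAs are known to come and go quickly. The comparison asks which genes already differ from fresh cells after 4 h on a dish.

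After 4 h in monolayer, 3164 of the 12423 genes passed the test (limma, Benjamini-Hochberg adjusted p below 0.05), 1185 of them higher and 1979 lower than in fresh cells. These were 9.54% and 15.9% of the genes tested, and the median change of all genes was -0.0521 on the log2 scale. At least 2-fold changes were called for 802 genes higher (6.46%) and 1024 genes lower (8.24%). With the mean of the probe sets of a gene these counts were 647 and 686. Without TCD_4h replicate 2 the counts were 1469 higher (11.8%) and 1519 lower (12.2%), so the share of higher genes among those called was 49.2% without that array, against 37.5% with it. Both analyses called 2565 genes, none of them in opposite directions, while 599 genes were called only with the array and 423 only without it. The split was 48% higher with no background filter, which tested 18193 genes, and 24.5% higher with each array centred on the median of 16 reference genes, where the median change of all genes was -0.215. All 3 TCD_4h values lay above the 3 fresh values for 2318 genes (18.7%) and below them for 2532 genes (20.4%). Changes of all genes correlated at r = 0.823, 0.903 and 0.78 between the pairs 1 and 2, 1 and 3, and 2 and 3 of TCD_4h arrays, which share the fresh arrays they are measured against. Of the called genes, 387 belong to at least 1 of the 53 gene lists used here and 2777 to none.

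**Figure D1:**
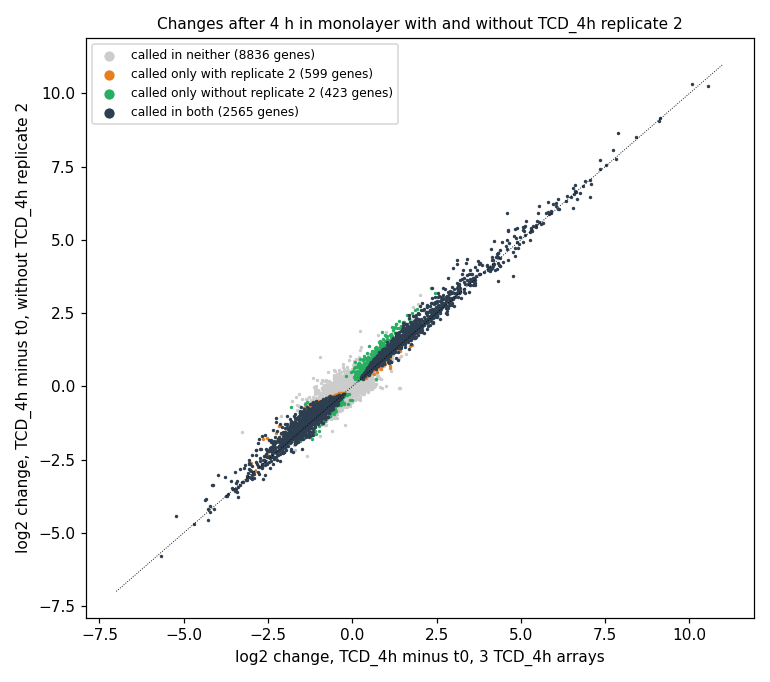
Log2 change of each of the 12423 genes, TCD_4h minus t0, with the 3 TCD_4h arrays (horizontal axis) and without TCD_4h replicate 2 (vertical axis); the dotted line marks equal values. The 2565 genes called in both lie in the upper right and lower left parts of the plot, and genes called in 1 of the 2 analyses number 599 and 423.

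Among the largest increases were genes of epidermal barrier, membrane repair and the cytoskeleton. Sprr1a, a small proline-rich protein of the cornified cell envelope, read 9.97, 11.16 and 10.51 in TCD_4h, against -0.053, 0.012 and 0 in fresh cells, an increase of 10.56 (standard error, SE, 0.402, limma adjusted p = 6.64e-09). Its 3 monolayer values lay far above the fresh ones, which were close together. Anxa2, a calcium-dependent membrane-binding annexin, read 9.03, 8.91 and 9.01 in TCD_4h and -0.68, 0.22 and 0 in fresh cells, an increase of 9.13 (adjusted p = 2.53e-09). Klf6, an early zinc finger transcription factor, read 8.25, 8.25 and 8.74 in TCD_4h and 0.19, -0.23 and 0 in fresh cells, and all 5 of its probe sets were called higher. The galectin Lgals3 had its lowest monolayer value on replicate 2 (8.51, 6.32 and 8.82 in TCD_4h against -0.0093, 0 and 0.019 in fresh cells), and its increase was 7.88 with that array and 8.66 without it. Tmsb10, which encodes an actin monomer-binding thymosin, increased by 10.07 on a probe set of sequence shared between transcripts, and the call was lost when such probe sets were left out (0.136, adjusted p = 0.398).

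Regulators of signalling stood in the same group. Ptpn2, a phosphatase that dephosphorylates JAK and STAT proteins, increased by 7.81 (7.55, 7.84 and 7.84 in TCD_4h, 0, -0.22 and 0.02 in fresh cells), with all 4 probe sets called higher. Dusp10, a phosphatase of the stress kinases p38 and JNK, increased by 7.06 (6.89, 6.87 and 6.80 in TCD_4h, 0.17, 0 and -0.78 in fresh cells). Il1rn, the interleukin 1 receptor antagonist, increased by 7.35, from 3 probe sets that all passed the test. The monolayer values of each of these 3 genes lay above all fresh values, which was a condition of choice for all the largest increases. Cdkn1a, the p21 inhibitor of cyclin-dependent kinases, read 8.36, 8.87 and 8.37 in TCD_4h, against -1.01, 5.33 and 0 in fresh cells, an increase of 7.09 (SE 1.15, adjusted p = 0.00071). Fresh replicate 2 stood high for Cdkn1a, although still below every monolayer array, and the adjusted p was 0.0593 when the 6 arrays were fitted alone. Lce1d, a late cornified envelope protein, increased by 7.04, and Sprr1b, named here as a family member of Sprr1a, by 5.91.

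The largest decreases included regulators of development, insulin signalling and glucose metabolism. Id2, an inhibitor of basic helix-loop-helix transcription factors, read -5.77, -5.42 and -5.78 in TCD_4h, against 0, -0.71 and 0.78 in fresh cells, a change of -5.68 (SE 0.56, limma adjusted p = 1.54e-05), and all 3 of its probe sets were called lower. Irs1, the insulin receptor substrate, read -4.59, -6.90 and -4.41 in TCD_4h and -0.59, 0.36 and 0 in fresh cells, so replicate 2 was the lowest of the monolayer arrays, and the change was -5.22 with it and -4.43 without it. Klf15, a glucocorticoid- and fasting-linked transcription factor of gluconeogenesis and amino acid breakdown, read -3.84, -5.29 and -3.85 in TCD_4h and 0, -0.082 and 0.097 in fresh cells. For these 3 genes the groups did not overlap, which was a condition of choice for all the largest decreases. Gas1, a growth arrest-specific membrane protein, changed by -4.27 (-4.30, -4.47 and -4.06 in TCD_4h, 0, -0.14 and 0.13 in fresh cells). Tbx3, a T-box transcription factor that depends on Wnt signalling in the liver, changed by -4.23 (-4.59, -5.00 and -4.58 in TCD_4h, 0.26, 0 and -1.74 in fresh cells), with both probe sets lower. Fresh replicate 3 stood low for Tbx3 and still lay above the 3 monolayer values.

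Further members of this group were Spata2l, with -4.94, -4.90 and -4.92 in TCD_4h and 0.29, 0 and -0.93 in fresh cells, the membrane protein gene Tmem25 (-4.10), Mcc (-4.23) and Mtmr4, a phosphoinositide phosphatase (-3.76). TCD_4h replicate 2 gave the lowest monolayer value for Inhbe, a liver-expressed activin subunit (-2.96, -5.73 and -2.94 in TCD_4h, 0.64, 0 and -0.36 in fresh cells), for Zmynd8, a chromatin reader (-4.00, -5.70 and -2.81 in TCD_4h, 0, 0.43 and -0.50 in fresh cells), for Mapre2, a microtubule end-binding protein, and for Ttc30b, a protein of intraflagellar transport. Without that array their changes were -3.04, -3.38, -3.38 and -3.10, in place of -3.97, -4.14, -4.16 and -3.79. A call without that array was a condition of their choice. Without probe sets of shared sequence Mapre2 lost its call (adjusted p = 0.476). Ccnf, a cyclin-type F-box protein, changed by -4.27 with fresh values of 0, 1.19 and -2.33, and its adjusted p was 0.0598 when the 6 arrays were fitted alone. Pde4b, a cyclic AMP phosphodiesterase, has 2 probe sets called higher and 1 called lower, so its listed change of -4.38 has no settled direction.

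**Figure D2:**
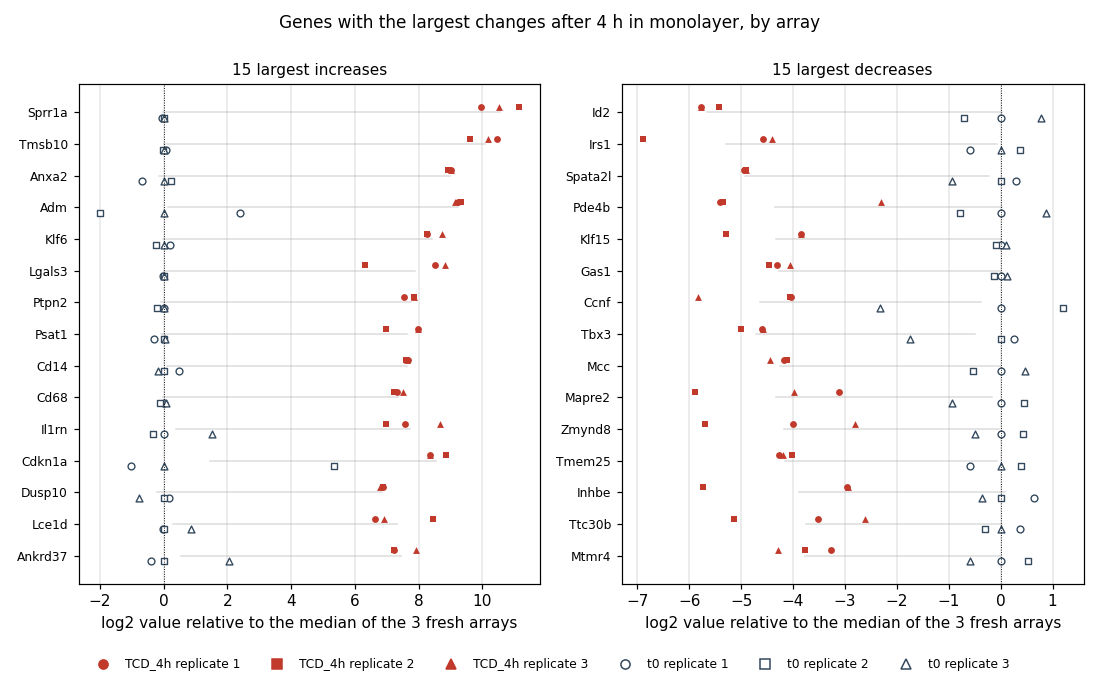
Values of the 15 genes with the largest increases (left) and the 15 with the largest decreases (right) on each of the 6 arrays; filled red symbols are TCD_4h, open symbols t0, and shapes mark the replicate number. The groups do not overlap for any of the 30 genes, which was a condition of their choice, and fresh replicate 2 of Cdkn1a stands apart from its group at 5.33.

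Genes of nucleolar ribosome biogenesis had the highest share of calls among the 45 functional lists. Of 38 members tested, 31 were called higher and none lower, against 9.54% and 15.9% of all genes, and the median change was 1.15 with TCD_4h replicate 2 and 1.34 without it. The list's median on each array was 1.33, 0.816 and 1.39 in TCD_4h, against 0, 0 and -0.236 in fresh cells. These genes make and fold ribosomal RNA and assemble the subunits of the ribosome. Heatr1, a subunit of the complex that starts processing of the small subunit, read 2.84, 3.29 and 2.89 in TCD_4h and 0.64, 0 and -0.099 in fresh cells, an increase of 2.83 (adjusted p = 2.57e-06). Wdr43, a protein of the same complex, increased by 2.47 (2.30, 2.30 and 2.68 in TCD_4h, 0.12, 0 and -0.24 in fresh cells). Gar1, a protein of the particles that turn uridine into pseudouridine, increased by 2.41 (SE 0.111, adjusted p = 4.09e-08). Nop58, a core protein of the methylation-guiding particles, increased by 2.34 and Rrp1b by 2.42. Rrp12 increased by 2.53, and its adjusted p was 0.0792 when the 6 arrays were fitted alone. The 7 members that did not pass the test included fibrillarin (Fbl), whose values were 0.34, -0.83 and 0.34 in TCD_4h and 0, 0.11 and -0.23 in fresh cells. Leaving out single arrays gave 24 to 31 calls higher, the lowest without TCD_4h replicate 1, and the 6 arrays alone gave 16, with none lower in any alternative. Called members with small changes included Npm1 (0.54) and Ncl (0.58), both lost with the 6 arrays alone (0.0766 and 0.0994).

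The bases upstream of the first listed transcription start are shown for the 3 members with the largest change that the RefSeq promoter table (GRCm38.p6) holds; Rrp12 is not among them. Capitals mark the CRE core TGACG on either strand, the motif bound by CREB and ATF proteins.
Heatr1 (chr13:12395125-12395374, plus strand): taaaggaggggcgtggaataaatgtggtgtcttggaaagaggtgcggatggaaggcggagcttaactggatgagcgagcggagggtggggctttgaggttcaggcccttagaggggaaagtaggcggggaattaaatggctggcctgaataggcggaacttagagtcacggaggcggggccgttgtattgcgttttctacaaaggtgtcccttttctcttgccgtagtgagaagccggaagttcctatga
Wdr43 (chr17:71615965-71616214, plus strand): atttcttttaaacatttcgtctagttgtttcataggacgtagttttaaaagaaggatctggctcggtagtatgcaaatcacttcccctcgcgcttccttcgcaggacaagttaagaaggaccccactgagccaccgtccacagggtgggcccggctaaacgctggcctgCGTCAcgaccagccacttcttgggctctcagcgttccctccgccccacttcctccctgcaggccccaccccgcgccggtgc
Rrp1b (chr17:32035912-32036161, plus strand): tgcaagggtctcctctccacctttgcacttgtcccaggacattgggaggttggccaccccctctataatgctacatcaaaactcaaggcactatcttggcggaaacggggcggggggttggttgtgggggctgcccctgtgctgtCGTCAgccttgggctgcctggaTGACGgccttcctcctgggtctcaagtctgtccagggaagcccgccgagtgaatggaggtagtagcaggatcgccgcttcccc
The letters are not in the window of Heatr1. Counted from the start, with negative positions upstream, the motif stood at -81 to -77 in Wdr43 on the minus strand, and in Rrp1b at -105 to -101 on the minus and -83 to -79 on the plus strand. The motif was in 14 of the 28 windows of called members, 50%, against 26.4% of the 10040 windows of tested genes and 17.8% of all 32851 windows of the same 250 bases. The E-box CACGTG, the best-known binding motif of Myc, was in 1 of these 28 windows, against 8.46% of tested genes. The AP-1 motif TGANTCA was in 0 of the 28, against 4.65% of tested genes. A match of letters is a description and says nothing of binding.

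Genes of the hypoxia response and glycolysis were also mostly higher. Of 31 members tested, 22 were called higher (71%, against 9.54% of all genes) and none lower with all arrays. The same counts came without TCD_4h replicate 2. The median change was 1.90, and the list's median on each array was 1.97, 1.37 and 2.04 in TCD_4h, against 0 on all 3 fresh arrays. Adm, the vasodilator peptide adrenomedullin, read 9.24, 9.31 and 9.13 in TCD_4h, against 2.40, -2.00 and 0 in fresh cells, an increase of 9.10 (SE 0.824, limma adjusted p = 8.08e-06). The monolayer values were close together, whereas the fresh arrays spread over more than 4 log2 units. That the groups of Adm did not overlap was a condition of its choice among the largest increases. Slc2a1, the glucose transporter GLUT1, read 6.35, 6.54 and 6.45 in TCD_4h and 0.23, 0 and -0.38 in fresh cells, with all 3 probe sets called higher. Ankrd37, a HIF1 target of little known function, increased by 6.90 (7.23, 7.21 and 7.91 in TCD_4h, -0.41, 0 and 2.05 in fresh cells). Both genes had monolayer values clear of the fresh ones, which for Ankrd37 was a condition of its choice among the largest increases.

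Glycolytic enzymes whose isozymes are not those of adult liver stood among these genes. Pkm, the pyruvate kinase of muscle and proliferating cells, increased by 5.94 (6.22, 5.42 and 6.25 in TCD_4h, -0.13, 0.19 and 0 in fresh cells), while the liver isozyme Pklr did not pass the test (0.024). Hk2, an inducible hexokinase, increased by 3.25 (2.67, 2.42 and 4.65 in TCD_4h, -0.0081, 0 and 0.016 in fresh cells), with the highest value on replicate 3. Pfkfb3, which makes the activator of phosphofructokinase, increased by 5.07 (adjusted p = 4.33e-05). Members that act in every cell changed less, with 0.68 for Ldha and 0.55 for Pgk1. The oxygen-sensing genes Hif1a (2.72), Epas1 (2.46) and the prolyl hydroxylase Egln3 (4.26) were called higher too, although 1 of the 4 Hif1a probe sets was not. Pdk1, Slc16a3 and Pfkfb4, also known hypoxia-responsive genes, had changes of 0.027, 0.045 and 0.089 and did not pass the test. Ndrg1 increased by 5.11, with fresh values of -0.0093, 0 and 4.26. With the 6 arrays alone the adjusted p was 0.0598 for Ndrg1 and 0.0761 for Epas1, so both calls were lost there.

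Upstream bases of the 3 members with the largest change are shown with the core of the hypoxia response element, ACGTG, in capitals on either strand.
Adm (chr7:110627407-110627656, plus strand): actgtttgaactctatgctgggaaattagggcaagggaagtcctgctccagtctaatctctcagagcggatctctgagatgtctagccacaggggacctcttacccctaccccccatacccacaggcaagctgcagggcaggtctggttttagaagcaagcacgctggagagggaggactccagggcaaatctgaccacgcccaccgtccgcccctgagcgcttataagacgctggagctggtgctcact
Ankrd37 (chr8:45999851-46000100, minus strand): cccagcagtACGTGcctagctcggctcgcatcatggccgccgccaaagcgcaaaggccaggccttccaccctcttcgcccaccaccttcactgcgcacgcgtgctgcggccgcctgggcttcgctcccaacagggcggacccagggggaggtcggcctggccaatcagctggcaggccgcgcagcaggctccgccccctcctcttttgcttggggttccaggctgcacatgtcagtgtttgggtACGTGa
Slc2a1 (chr4:119108495-119108744, plus strand): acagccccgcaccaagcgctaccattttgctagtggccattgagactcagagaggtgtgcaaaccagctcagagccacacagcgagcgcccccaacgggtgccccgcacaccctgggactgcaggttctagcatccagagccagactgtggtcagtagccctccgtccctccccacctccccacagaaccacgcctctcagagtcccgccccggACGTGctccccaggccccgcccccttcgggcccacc
The core stood at -241 to -237 and at -6 to -2 in Ankrd37 and at -36 to -32 in Slc2a1, and these letters are not in the window of Adm. Of the 20 windows of called members, 13 held it (65%), against 21.6% of tested genes, 24.2% of genes called higher and 16.6% of all windows. The metal response core TGCNCNC, searched for in the same windows, was also in a larger share of them, 17 of 20 (85%), against 51.7% of tested genes and 54.8% of genes called higher. The hypoxia response core overlaps the E-box, which contains it and was in 2 of the 20 windows.

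The integrated stress response and amino acid response followed the same direction. This pathway slows translation through phosphorylation of eIF2α and raises ATF4, whose targets make serine, import amino acids and charge tRNAs. Of 26 members tested, 17 were higher (65.4%, against 9.54% of all genes) and 1 lower (3.85%, against 15.9%), with a median of 1.84. The counts were the same without TCD_4h replicate 2, while the 6 arrays alone gave 11 and 0. Psat1, a serine synthesis enzyme, read 7.98, 6.97 and 7.98 in TCD_4h, against -0.29, 0 and 0.043 in fresh cells, an increase of 7.73 (adjusted p = 2.14e-09). Ddit3, the transcription factor CHOP, read 6.31, 6.47 and 6.27 in TCD_4h and -0.095, 0.82 and 0 in fresh cells. Mthfd2, a mitochondrial folate enzyme, increased by 5.33 and Nupr1, a stress-induced nuclear protein, by 4.79. The groups were apart for each of these 4 genes, which for Psat1 was a condition of its choice among the largest increases. Trib3, an ATF4-induced pseudokinase, increased by 4.28 with fresh values of 0, -3.42 and 0.26, and Ddit4, an mTOR inhibitor, by 4.04 with fresh values of -0.75, 3.03 and 0. Each of these 2 has 1 fresh array far from the others, and their adjusted p-values were 0.0599 and 0.0648 with the 6 arrays alone. Atf4 itself increased by 1.23, and the amino acid transporter Slc38a2 was the member called lower (-1.35; adjusted p = 0.0528 with the 6 arrays alone).

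Aminoacyl-tRNA synthetases and translation factors rose in part. Of 20 synthetases tested, 9 were higher (45%, against 9.54% of all genes) and none lower, with a median of 0.347. When TCD_4h replicate 1, TCD_4h replicate 3 or t0 replicate 3 was left out, 5 were higher. The largest stable changes were 1.15 for Sars, 0.97 for Lars and 0.96 for Gars, so these increases were near 2-fold. The 6 arrays alone gave 3. Of 26 translation factors, 10 were higher (38.5%) and 1 lower (3.85%, against 15.9% of all genes). Eif4e, the cap-binding protein, read 6.02, 6.57 and 6.54 in TCD_4h and 0, 1.09 and -0.38 in fresh cells, an increase of 6.14 (adjusted p = 2.39e-07) found with all 4 probe sets. Its inhibitor Eif4ebp1 increased by 1.84, and Eif1a, Eif6 and Eif3a by 1.68, 1.63 and 0.87. The abundant elongation factor Eef1a1 had a change of 0.018 and did not pass the test.

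Immediate early and AP-1/ATF genes were often called higher, while their share of lower calls was near that of all genes. Of 30 members tested, 16 were called higher (53.3%, against 9.54% of all genes) and 6 lower (20%, against 15.9%). Without TCD_4h replicate 2 the counts were 16 and 5. Fosl1, a Fos-family subunit of AP-1, read 5.99, 5.60 and 6.52 in TCD_4h, against -0.0096, 0 and 0.017 in fresh cells, an increase of 6.03 (limma adjusted p = 7.86e-07). Fos itself read -1.81, -1.99 and -1.31 in TCD_4h and 0.47, -0.028 and 0 in fresh cells, a change of -1.85 (adjusted p = 0.00105). The monolayer values were thus all above the fresh ones for Fosl1 and all below them for Fos. Jun changed by -0.85, from 1 of its 2 probe sets, and the mean of both did not pass the test (-0.4617, adjusted p = 0.0519). Ier2 changed by -2.26 and Zfp36, which encodes an mRNA-decay protein, by -1.13. The call for Egr1 (-1.33) was lost without TCD_4h replicate 1 (adjusted p = 0.0857) and without t0 replicate 1 (0.0869) or 3 (0.0799). Nr4a1 (-2.10) had fresh values of 2.25, 0 and -0.38 and was not called without TCD_4h replicate 2 (adjusted p = 0.0875) or without t0 replicate 1 (0.0599). These 6 are classical first-wave genes, and no other list member was called lower. On the higher side stood Klf6, Maff (5.88), Ier5 (4.39), Atf3 (2.52) and the phosphatase subunit Ppp1r15a (3.50). Klf4 increased by 4.18, but its probe set chosen on the 9 other arrays gave 0.684 (adjusted p = 0.147). Ier3 increased by 5.08 with fresh values of 0, -2.94 and 1.66, and its adjusted p was 0.0576 with the 6 arrays alone.

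**Figure D3:**
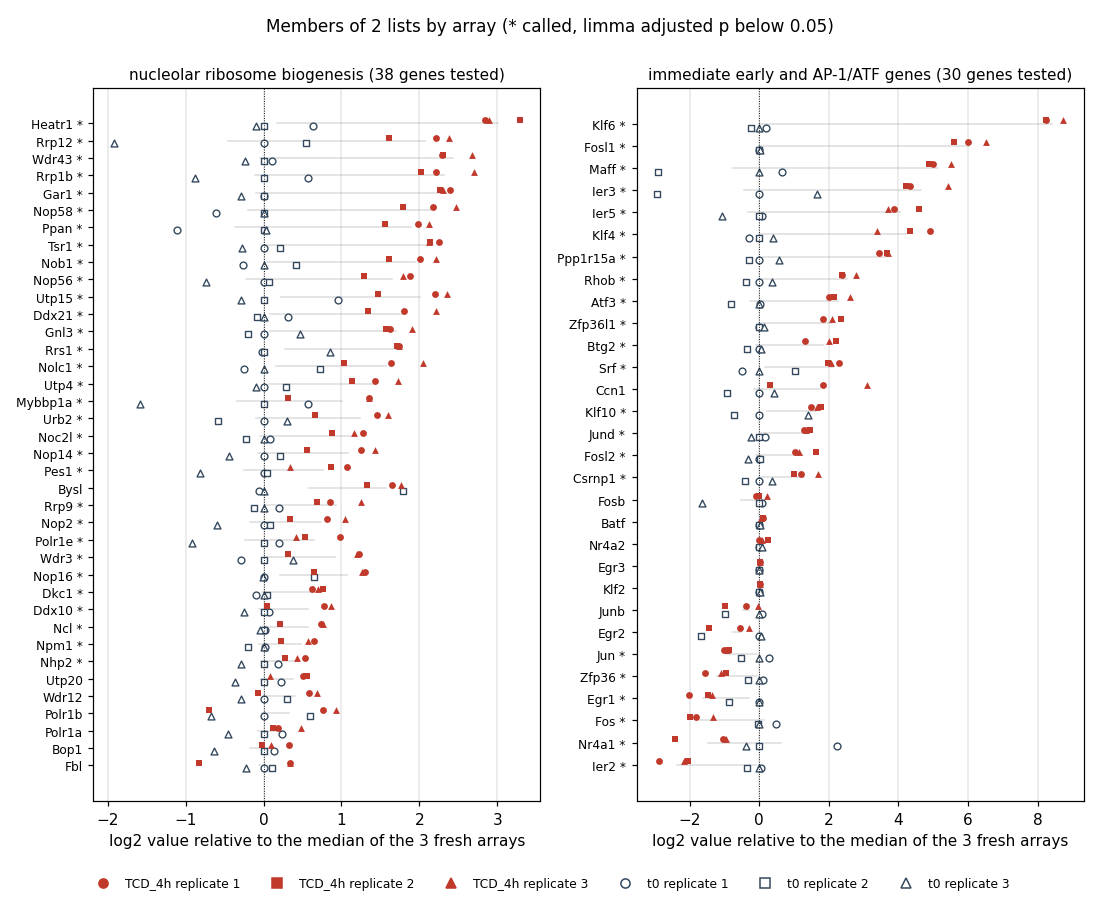
Array values of the 38 tested genes of nucleolar ribosome biogenesis (left) and of the 30 tested immediate early and AP-1/ATF genes (right), ordered by change; filled red symbols are TCD_4h, open symbols t0, and an asterisk marks a called gene. The left panel has 31 called genes, all higher in TCD_4h, and the right panel 16 higher and 6 lower, with Klf6 at the top and Ier2 at the bottom.

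Genes of MAP kinase feedback were higher or not called. Of 19 phosphatases, Sprouty and Spred genes, 8 were higher (42.1%, against 9.54% of all genes) and none lower. Dusp5, a nuclear ERK phosphatase, read 4.13, 4.17 and 4.22 in TCD_4h and 0, 0.0029 and -0.061 in fresh cells, Dusp8 increased by 3.90 and Dusp14 by 3.48. Dusp1 did not pass the test (-0.44), and neither did Spry4 (-1.20), which was called lower without t0 replicate 2 (-1.99, adjusted p = 4.6e-05). Of 23 growth factor ligands and receptors, 4 were higher (17.4%) and 3 lower (13%, against 15.9% of all genes). Without TCD_4h replicate 2, t0 replicate 1 or t0 replicate 3, 1 was lower, and with the replicate number as a block 6 were lower. The EGF receptor ligands Hbegf and Btc increased by 6.03 and 5.82, and Pdgfa and Vegfa by 2.78 and 2.26. Hbegf read 6.01, 6.09 and 6.88 in TCD_4h and 0.90, -0.016 and 0 in fresh cells, and Btc 6.22, 5.76 and 6.03 in TCD_4h and 0.83, 0 and -0.27 in fresh cells, so the groups were apart for both ligands. On the receptor side Erbb3 changed by -1.89 (adjusted p = 0.00101). The call for the receptor Egfr (-1.42) was lost without TCD_4h replicate 2 (-0.93, adjusted p = 0.117), and also without TCD_4h replicate 1 or without t0 replicate 1 or 3, with adjusted p-values of 0.0691 to 0.117.

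Of the NF-kB and chemokine genes, 14 of 30 were higher (46.7%, against 9.54% of all genes) and 5 lower (16.7%, against 15.9%). NF-kB is held in the cytoplasm by IκB proteins and turns on both inflammatory genes and its own inhibitors. Icam1, a leukocyte adhesion molecule, read 4.86, 4.73 and 4.90 in TCD_4h, against 0.68, 0 and -2.07 in fresh cells, an increase of 5.30. Cxcl10, a T cell chemokine, increased by 5.55, and the inhibitor Tnfaip3 (A20) by 4.33. The subunits Relb, Rel, Nfkb2 and Rela were all called higher, by 4.00, 2.58, 2.03 and 1.16. Lower were the chemokine Cxcl12 (-3.40), by both probe sets, Nfkbiz (-3.45), Tnfaip2 (-2.42), Nfkbia, which encodes IκBα (-1.02), and Birc2 (-0.68). The mean of the 3 Nfkbiz probe sets did not pass (-1.29, adjusted p = 0.0657), nor did Tnfaip2 without probe sets of shared sequence (0.186). Nfkbia lost its call without TCD_4h replicate 1 or 3 or t0 replicate 1 or 3 (0.0876 to 0.119), and Birc2 without TCD_4h replicate 1 or 2 or t0 replicate 1 or 2 (0.0874 to 0.0975). The neutrophil chemokine Cxcl1 read -1.89, -2.34 and -1.53 in TCD_4h and 0.27, -1.29 and 0 in fresh cells, a change of -1.58 that missed the threshold (adjusted p = 0.084) and passed it with the replicate number as a block (0.0272) and without t0 replicate 2 (0.0428). Without TCD_4h replicate 1 or t0 replicate 1 the list had 3 lower genes.

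Acute phase genes, whose proteins the liver secretes in inflammation, were higher in 11 of 26 cases (42.3%, against 9.54% of all genes) and lower in 1. Cd14, a lipopolysaccharide co-receptor, read 7.67, 7.61 and 7.63 in TCD_4h, against 0.49, 0 and -0.18 in fresh cells, an increase of 7.54 (adjusted p = 6.9e-09). Lcn2, an iron-siderophore-binding lipocalin, increased by 3.62 (4.15, 3.88 and 4.12 in TCD_4h, 1.75, 0 and -0.44 in fresh cells), and serum amyloid Saa3 by 3.10. The monolayer values of these 3 genes lay above all fresh values, which for Cd14 was a condition of its choice among the largest increases. Saa2 increased by 2.92 over fresh values of 1.85, -1.23 and 0, with an adjusted p of 0.0767 when the 6 arrays were fitted alone. The abundant secreted members did not pass the test, with 0.12 for haptoglobin (Hp), 0.15 for the fibrinogen chain Fga and 0.27 for hepcidin (Hamp). Socs3, the feedback inhibitor of interleukin 6 signalling, was the member called lower (-3.02, -3.30 and -2.44 in TCD_4h, 0.49, -1.51 and 0 in fresh cells), by all 3 probe sets. Interferon-stimulated genes had 4 higher (16%, against 9.54% of all genes) and 1 lower of 25, or 8 higher with the replicate number as a block. They were led by Gbp2 (4.63) and Isg20 (4.05), while Rsad2 (4.31) had an adjusted p of 0.066 with the 6 arrays alone.

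Oxidative stress genes under NRF2 were higher in 9 of 32 cases (28.1%, against 9.54% of all genes). The 1 lower gene was Sod1, a superoxide dismutase (-1.66). Hmox1, heme oxygenase 1, read 7.11, 6.99 and 6.96 in TCD_4h and 0.74, -0.17 and 0 in fresh cells, an increase of 6.83 (adjusted p = 7.7e-08). Srxn1, which repairs oxidised peroxiredoxins, increased by 5.34 and the autophagy receptor Sqstm1 by 5.44, with all probe sets of both called higher. Nqo1 and Gclm, members often used as readouts of the pathway, had changes of -0.12 and -0.31 and did not pass. Cbr3 (1.68) lost its call when any of the other 5 arrays than TCD_4h replicate 2 was left out (adjusted p 0.0764 to 0.14) and stood at 0.15 on that replicate. Of the metal genes, Mt2, a metallothionein, increased by 2.08 and the zinc exporter Slc30a1 by 2.33. For Mt1 the probe set with the largest spread gave -1.30 and the other one was called higher, so the 2 probe sets disagree and no direction is settled.

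Heat shock and endoplasmic reticulum chaperone genes were rarely higher. Of 24 heat shock genes 1 was higher, the small heat shock protein Hspb8 (2.37), and 5 were lower, a share of 20.8%, against 15.9% of all genes, or 3 lower without TCD_4h replicate 2 or t0 replicate 1 and 2 lower without t0 replicate 2. Hsf2, a heat shock factor, changed by -1.46 (-1.12, -1.76 and -1.64 in TCD_4h, 0, 0.091 and -0.22 in fresh cells), and the constitutive chaperone Hspa8 by -1.94 (adjusted p = 0.0895 with the 6 arrays alone). The inducible Hspa1b read -2.01, -4.17 and -1.34 in TCD_4h and -1.13, 1.54 and 0 in fresh cells. Its change of -2.64 was not called without TCD_4h replicate 2 (-1.81, adjusted p = 0.0946), nor without t0 replicate 2 (0.103) or t0 replicate 3 (0.0528). Of 25 endoplasmic reticulum genes, the sensor Ern1 was higher (1.86) and Herpud1 (-2.31) and Ssr1 (-1.34) lower, and the chaperone Hspa5 (BiP) did not pass the test (0.55), except without t0 replicate 2 (0.80, adjusted p = 0.029). The call for Ssr1 was lost without TCD_4h replicate 2 or 3 or t0 replicate 1 or 2 (adjusted p 0.0797 to 0.169).

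Growth arrest, apoptosis and cell cycle genes were mixed. Of 27 p53-linked and growth arrest genes, 10 were higher (37%, against 9.54% of all genes) and 6 lower (22.2%, against 15.9%). The polo-like kinase Plk2 increased by 3.13 (3.17, 3.28 and 2.80 in TCD_4h, 0, 0.44 and -0.59 in fresh cells), Ccng2 by 2.81, Gadd45a by 2.80 and Sesn2 by 2.54. Mdm2, which marks p53 for degradation, increased by 2.90, and its call was lost without probe sets of shared sequence (0.06617, adjusted p = 0.533). Sesn1 was lower (-2.36) by all 3 probe sets, and the p53 targets Ccng1 and Perp had changes of -0.86, called lower but lost without probe sets of shared sequence (adjusted p = 0.0783), and -0.17, not called. Among 25 apoptosis regulators, 6 were higher and 6 lower, 24% each way. The survival genes Bcl2l1 and Mcl1 increased by 4.13 and 1.96, the TWEAK receptor Tnfrsf12a by 6.37 (6.40, 6.12 and 6.55 in TCD_4h, 0, 1.01 and -1.03 in fresh cells), and the initiator caspase Casp9 changed by -2.67. The proto-oncogene Myc increased by 1.79 (1.46, 1.79 and 1.78 in TCD_4h, 0, -0.74 and 0.40 in fresh cells). The G1 cyclin Ccnd1 did not pass the test (-1.17). Of 21 genes of S phase and mitosis 2 were higher (9.52%, against 9.54% of all genes) and 4 lower (19%, against 15.9%), so both shares were near those of all genes. Without TCD_4h replicate 1, TCD_4h replicate 3 or t0 replicate 2, 1 was higher. Among the lower genes were Cdk1 (-1.31), the kinase of mitotic entry, and Ube2c (-1.36).

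Cytoskeleton genes were higher in 18 of 42 cases (42.9%, against 9.54% of all genes) and lower in 4 (9.52%, against 15.9%). Without TCD_4h replicate 3 or t0 replicate 3, 2 were lower. Tubb6, a tubulin, read 5.80, 5.57 and 5.72 in TCD_4h, against 0.037, 0 and -2.76 in fresh cells, an increase of 6.60, and Tpm4, a tropomyosin, increased by 4.16 (SE 0.186, adjusted p = 3.23e-08). The hepatocyte keratins Krt8 and Krt18 increased by 2.86 and 2.97 (SEs 0.105 and 0.117). Krt18 read 3.07, 2.98 and 3.12 in TCD_4h and 0.37, -0.098 and 0 in fresh cells. Vim, the mesenchymal filament vimentin, read 5.19, 2.55 and 4.42 in TCD_4h, with replicate 2 lowest, and 0, -0.60 and 0.14 in fresh cells, an increase of 4.21 with that array and 4.96 without it. Nonmuscle myosin Myh9 increased by 3.60 with all 5 probe sets, and Actb by 0.69 (0.80, 0.80 and 0.80 in TCD_4h, 0, 0.37 and -0.044 in fresh cells). Gapdh was not tested, since it had no probe set with 1 symbol off the background. The smooth muscle actin Acta2 had a change of 0.13 and did not pass. In the adhesion list 7 of 30 were higher (23.3%) and 2 lower (6.67%). The higher ones included the focal adhesion protein Zyx (2.85) and the p130Cas scaffold Bcar1 (1.59), and Itgb1 had 0.25, not called.

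Targets of YAP, SRF and TGF-beta were higher in 11 of 31 cases (35.5%, against 9.54% of all genes), or in 14 without TCD_4h replicate 2. They were lower in 4 (12.9%, against 15.9% of all genes). Tissue factor F3, the starter of coagulation, increased by 5.13 (5.01, 4.29 and 5.55 in TCD_4h, 0.85, -1.39 and 0 in fresh cells), the TGF-beta repressor Tgif1 by 3.75 and the LIM protein Fhl2 by 2.78. Of the best-known YAP targets, Ankrd1 did not pass the test (0.049). Ccn1 (1.91) and Ccn2 (1.51) did not pass either with all arrays, but were called higher without TCD_4h replicate 2 (2.63, adjusted p = 0.0463, and 2.18, adjusted p = 0.0161). The kinase Nuak2 changed by -2.80. Id2 counts among the lower members here, while its paralogue Id3 was higher (1.74). Of the matrix genes, the cathepsin Ctsl increased by 4.07, the protease Adamts1 by 4.03 and the basement membrane collagen Col4a1 by 3.32. Among 26 junction genes, Cldn14 increased by 2.48, and Cldn3 and Ocln changed by -1.43 and -1.58, with all 4 Cldn3 probe sets lower and Ocln lost with the 6 arrays alone (adjusted p = 0.0695).

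Liver transcription factors and nuclear receptors had the highest share of lower calls of any list. Of 32 members tested, 12 were lower (37.5%, against 15.9% of all genes) and 2 higher, with a median of -0.466, and without TCD_4h replicate 2 there were 10 lower and 2 higher. The list's medians were -0.587, -0.538 and -0.522 in TCD_4h, against 0, 0.0123 and -0.0022 in fresh cells. Foxa2, a pioneer factor of liver chromatin, read -3.31, -2.67 and -2.62 in TCD_4h and -0.22, 0 and 0.34 in fresh cells, a change of -2.91 (SE 0.265, limma adjusted p = 8.41e-06). Its paralogue Foxa1 changed by -2.84 (-2.03, -3.60 and -2.23 in TCD_4h, 0, -0.29 and 0.96 in fresh cells). Foxa3, the third of the family, went the other way and increased by 2.01 (1.79, 1.75 and 1.79 in TCD_4h, 0, 0.31 and -0.99 in fresh cells). None of these 3 pairs of groups overlapped. Ppara, the receptor for fatty acids, changed by -2.41 with all 3 probe sets lower, Prox1 by -2.11, Nr5a2 by -1.75 and the bile acid-induced repressor Nr0b2 (SHP) by -2.03. Cebpa, a factor of differentiated hepatocytes, read -1.52, -1.47 and -1.09 in TCD_4h and 0, 0.058 and -0.19 in fresh cells, a change of -1.32 (adjusted p = 0.000165). Hnf4a, the central hepatocyte nuclear receptor, read -0.017, -0.13 and 0.24 in TCD_4h and 0, 0.27 and -0.21 in fresh cells and did not pass, but 1 of its 4 probe sets was called lower, and without probe sets of shared sequence its change was -0.9028 (adjusted p = 0.0041).

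Zonation, hormone and clock genes were affected in part. The pericentral list, genes that Wnt signalling keeps on near the central vein, had 8 of 26 lower (30.8%) and 1 higher, with 5 lower when t0 replicate 1 was left out. Its lower members were led by Tbx3, Cyp7a1 and the Wnt feedback ligases Znrf3 (-2.76) and Rnf43 (-1.76; adjusted p = 0.054 with the 6 arrays alone). Replicate 2 decided the size for Znrf3 (-2.18, -4.99 and -1.95 in TCD_4h, -1.79 for the change without it), and its probe set chosen on the 9 other arrays gave 0.1781 (adjusted p = 0.514). The pericentral enzyme Cyp2e1 did not pass (-0.041). Glutamine synthetase (Glul) had 0.29 and did not pass, although 1 of its 2 probe sets was called higher, and Oat (-0.38) passed with the replicate number as a block (0.0376). In the growth hormone axis, Igfals, a carrier of IGF1 in blood, changed by -1.80 and Igfbp1 increased by 1.26, while the 5 probe sets of Socs2 disagree, with 1 higher and 1 lower. Of the insulin and glucocorticoid genes, Pdk4, which shuts down pyruvate dehydrogenase, increased by 4.46 (4.56, 5.21 and 4.56 in TCD_4h, 0, 1.12 and -0.18 in fresh cells). G6pc, the last enzyme of glucose release, changed by -1.98 (-2.16, -1.69 and -2.41 in TCD_4h, 0.038, 0 and -0.35 in fresh cells). Pck1 changed by -1.11, a call lost without TCD_4h replicate 2 (adjusted p = 0.125), TCD_4h replicate 3 (0.0577), t0 replicate 1 (0.136) or t0 replicate 3 (0.0604). Among clock genes Bhlhe40 increased by 1.63. The list of 21 had 6 higher (28.6%, against 9.54% of all genes) and 3 lower genes (14.3%, against 15.9%). Without TCD_4h replicate 1 or 3 it had 3 higher, and without t0 replicate 2 it had 1 lower.

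As with most genes tested, most enzymes and secreted proteins of differentiated liver did not pass the test after 4 h. Over all genes tested, 9.54% were higher and 15.9% lower. Of 39 cytochrome P450 and phase I genes, none was higher and 3 were lower (7.69%). Cyp2u1 (-1.52) kept its call whichever array was left out, while t0 replicate 1 or 2 left out gave 1 lower. Cyp2j5 (-0.49) lost its call without TCD_4h replicate 1 or 2 or t0 replicate 1 or 2 (adjusted p 0.0601 to 0.0851), and Cyp4v3 (-0.32) without TCD_4h replicate 1 or 3 or t0 replicate 1 or 2 (0.063 to 0.101). Cyp3a11, a main drug-metabolising P450, read -0.15, 0.27 and 0.11 in TCD_4h and -0.049, 0 and 0.073 in fresh cells, and the groups overlapped. None of 35 coagulation and complement genes was called by limma, 5 had an unadjusted p below 0.05, and changes ran from -0.35 to 0.58. Without TCD_4h replicate 2 there were 2 higher, and with the replicate number as a block 1 higher and 2 lower. Proc, which came nearest (-0.30, adjusted p = 0.0549), passed with the replicate number as a block (0.0403) and without TCD_4h replicate 3 (0.0259). None of 21 cholesterol synthesis genes was called by limma either, with 3 at an unadjusted p below 0.05, but calls appeared when fresh arrays were left out. Sqle, squalene epoxidase (1.32, adjusted p = 0.0692), was called higher without t0 replicate 1 (1.67, adjusted p = 0.0434), 2 (1.78, 0.0215) or 3 (0.51, 0.0422). Sc5d (-1.46, adjusted p = 0.0615) was lower without t0 replicate 3 (0.0431) and, with Ebp (-0.29, 0.0437), under the replicate block (0.0361), and Mvd was lower without t0 replicate 3 (-2.05, 0.038). Of 41 urea cycle and amino acid catabolism genes, Ass1 alone was called lower (-1.23), a call lost without TCD_4h replicate 1 or 3 or t0 replicate 2 or 3 (adjusted p 0.0604 to 0.0701), and the block gave 3 lower. Of 28 plasma proteins 3 were higher (10.7%, near the share of all genes). They were Apoa4 (2.68), Serpina7 (2.21) and Apob (0.96), and Serpina7 had a limma adjusted p of 0.174 with the 6 arrays alone. One was lower, Apof (-0.35), a call lost with the 6 arrays alone (0.0606) and without any array other than TCD_4h replicate 3 (adjusted p 0.0571 to 0.0977). Alb, the serum albumin, read -0.049, 0.11 and 0.12 in TCD_4h and 0, 0.045 and -0.024 in fresh cells. Centring on reference genes gave 9 lower P450 and phase I genes, 7 lower coagulation and complement genes and 4 lower urea cycle genes.

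None of 22 bile acid and steroid synthesis genes was higher and 5 were lower (22.7%, against 15.9% of all genes), or 10 after centring on reference genes. Cyp7a1, the rate-limiting enzyme of the classical pathway, read -2.46, -1.55 and -2.77 in TCD_4h, against 0, 1.11 and -0.56 in fresh cells, a change of -2.45 (SE 0.505, adjusted p = 0.00352), and both probe sets were lower. All monolayer values lay below the fresh ones, and Nr0b2, which represses Cyp7a1, was lower as well. The peroxisomal enzyme Hsd17b4 changed by -0.60. Of the other calls, Hsd3b2 (-1.12) was lost without TCD_4h replicate 2 or 3 or t0 replicate 2 or 3 (adjusted p 0.0503 to 0.0784), and Baat, which conjugates bile acids (-0.80), without TCD_4h replicate 1 (0.0506) or t0 replicate 2 (0.0636). In lipid metabolism, Cidec, a lipid droplet protein, increased by 4.84 (5.26, 3.66 and 5.30 in TCD_4h, -0.31, 0 and 0.025 in fresh cells), the desaturase Scd1 by 1.86 and the droplet coat Plin2 by 0.97, while Fasn did not pass (-0.58). Respiratory chain and citrate cycle genes had 4 of 39 lower, with Idh3a (-1.70) the largest (adjusted p = 0.108 with the 6 arrays alone), and the share of 10.3% was below that of all genes, with 2 lower without t0 replicate 2 or 3. Proteasome genes had 2 of 33 higher and 4 lower, all within 0.5 log2 units of 0, with 2 lower when TCD_4h replicate 2 or any fresh array was left out, and after centring on reference genes none was higher and 13 were lower.

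**Figure D4:**
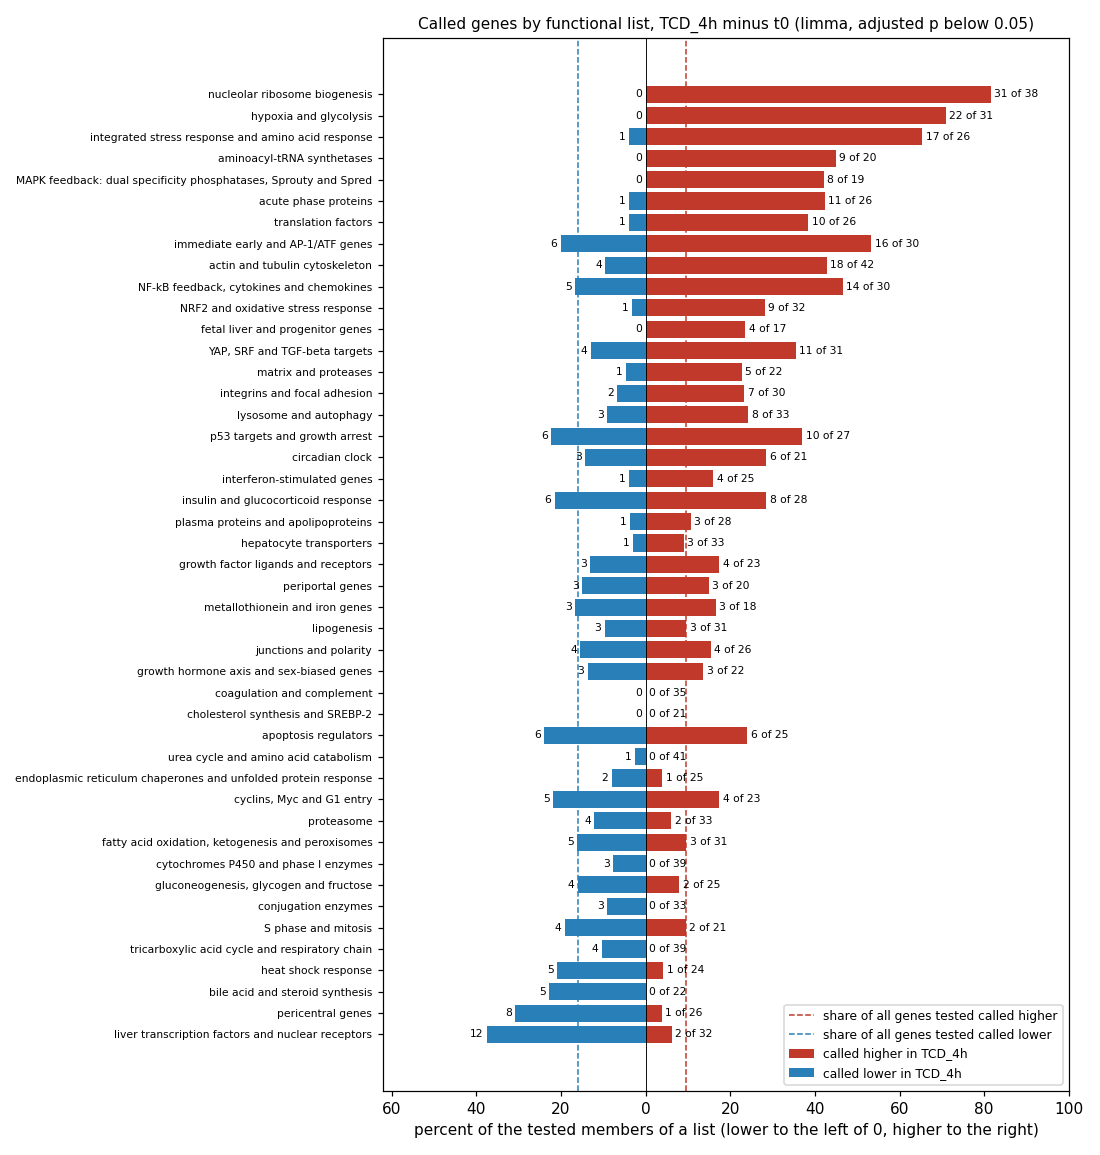
Share of the tested members of each of the 45 functional lists that was called higher (red, right) or lower (blue, left) in TCD_4h than in t0, with the counts beside the bars; dashed lines mark the 9.54% higher and 15.9% lower of all 12423 genes tested. Nucleolar ribosome biogenesis (31 of 38 higher) stands at the top and liver transcription factors and nuclear receptors (12 of 32 lower) at the bottom.

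Since the table holds no levels, the presence of hepatocyte markers could not be read from it, and only their change could. Of 15 hepatocyte markers tested, 13 did not pass the test, with Apob higher and Pck1 lower. Of 17 Kupffer cell and macrophage markers, Cd68 alone was called with all arrays (7.33, 7.24 and 7.50 in TCD_4h, 0, -0.10 and 0.082 in fresh cells), while the defining genes Clec4f, Marco and Cd5l had changes of -0.14, 0.059 and 0.16. Other members were called higher in single alternatives. Cd74 was higher without TCD_4h replicate 2 (1.203, limma adjusted p = 0.000698) and Laptm5 without TCD_4h replicate 3 (1.244, 0.0179). With the replicate number as a block, C1qb was higher (1.215, 0.0292). The list's medians were 0.392, -0.2 and 0.0485 in TCD_4h, against 0.0923, -0.293 and 0 in fresh cells. These values stand beside the increases of Cd68, Cd14, Il1rn and Lgals3, genes that macrophages also express. Of 15 sinusoidal endothelial markers, 4 were lower (26.7%, against 15.9% of all genes) and 1 higher, with Dnase1l3 (-1.97, -1.94 and -1.93 in TCD_4h, -0.20, 0 and 0.62 in fresh cells) and Ehd3 (-1.69) stable. The call for Clec4g (-3.00) was lost without TCD_4h replicate 1 or 2 (adjusted p 0.0546 and 0.055), that for Stab2 (1.12) without t0 replicate 2 or 3 (0.0636 and 0.0504), and that for Mrc1 (-0.71) without TCD_4h replicate 1 or 2 or t0 replicate 2 or 3 (0.069 to 0.176). None of 9 stellate markers and none of 4 lymphocyte markers was called by limma, and none of either had an unadjusted p below 0.05. Of 8 cholangiocyte markers, 1 was higher, Sox9 (6.84, 8.07 and 6.49 in TCD_4h, 2.38, 0 and -0.63 in fresh cells), and 1 lower, Pkhd1 (-1.88). The call for Pkhd1 was lost without t0 replicate 2 or 3 (limma adjusted p 0.0653 and 0.0553) and with the 6 arrays alone (0.194). Krt19 had a change of 0.038 and Epcam of 0.37, and neither was called. Of 4 neutrophil markers, Lcn2 was the one called, and S100a9 had 0.16. The part of other cell types in the results was not tested.

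Set against aggregates of the same age, 766 of the 12423 genes (6.17%) differed between RWV_4h and TCD_4h, a share smaller than that of the genes called between TCD_4h and fresh cells. Of the 257 genes named by rule, 28 differed, 16 of them higher and 12 lower in RWV_4h. These counts and the differences that follow include TCD_4h replicate 2 and were not taken again without it. Fgf21, a fasting and stress hormone of the liver, averaged 6.24 in RWV_4h and 1.18 in TCD_4h, a difference of 5.06 (SE 0.611, limma adjusted p = 0.00102), while its TCD_4h values of 1.34, 1.68 and 0.53 did not pass the test against -0.0087, 0 and 0.015 in fresh cells. Irs1 averaged -2.36 in RWV_4h and -5.30 in TCD_4h (adjusted p = 0.0119), and Foxa2 -1.25 in RWV_4h and -2.87 in TCD_4h (adjusted p = 0.00493), so the aggregates stood nearer to the fresh value of 0. Slc2a1 averaged 4.32 in RWV_4h and 6.45 in TCD_4h, and Pkm 3.82 in RWV_4h and 5.96 in TCD_4h, both lower in aggregates (adjusted p = 0.00815 and 0.00213). Txnip, a glucose-responsive inhibitor of glucose uptake, averaged 1.67 in RWV_4h and -2.48 in TCD_4h, a difference of 4.14 (adjusted p = 0.00842). Its change from fresh cells in TCD_4h (-2.54) lost its call without TCD_4h replicate 1 or 2 or without t0 replicate 1 or 3 (adjusted p 0.063 to 0.104).

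Between 4 and 24 h in monolayer 6905 genes (55.6%) differed, in a test that included TCD_4h replicate 2 and was not repeated without it. Of the 15 genes with the largest increases at 4 h, 9 were higher still at 24 h and 3 were lower than at 4 h. Lgals3 averaged 12.03 at 24 h and 7.88 at 4 h, a further difference of 4.15 (adjusted p = 0.000237). Il1rn (-4.21) and Ptpn2 (-3.07) moved back towards the fresh values. Of the 15 largest decreases, 3 were higher and 2 lower at 24 h than at 4 h. Klf15 fell further, to a mean of -8.49 at 24 h, against -4.33 at 4 h, and Zmynd8 was higher at 24 h by 5.02. Hepatocyte genes that did not pass the test at 4 h against fresh cells differed between 24 and 4 h, with Hnf4a lower at 24 h than at 4 h by a difference of -2.40 (adjusted p = 2.7e-06) and Cyp3a11 by -0.54 (adjusted p = 0.00105). Without probe sets of shared sequence, Hnf4a was already lower at 4 h than in fresh cells (-0.9028, limma adjusted p = 0.0041). When its decline began is therefore not settled.

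**Figure D5:**
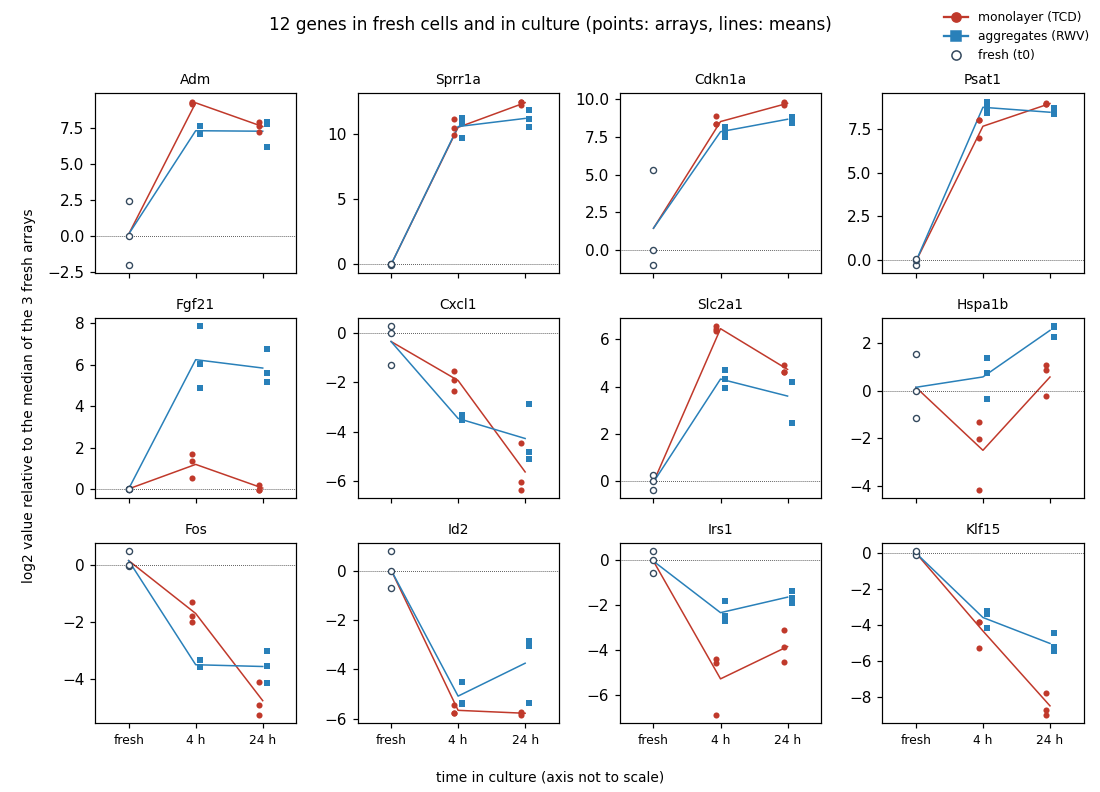
Array values (points) and group means (lines) of 12 genes in fresh cells, at 4 h and at 24 h, for monolayers (TCD, red) and aggregates (RWV, blue); the vertical axis is the log2 value relative to the fresh median and differs between panels. The 3 TCD_4h arrays of Fgf21 lie below its 3 RWV_4h arrays, and Id2 and Klf15 lie below the fresh values in both vessels.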

How the data were processed

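Total RNA (RNeasy Mini Kit, amplified and labelled with MessageAmp II-Biotin per the labels' protocols) was hybridised to Affymetrix mouse arrays, 3 in each of 5 groups. The deposited table holds log2 values made by the authors with GCRMA, per the submitters' processing notes; its version and the later centring are not given in the sources used here. All 45101 rows have a median of 0 over the 3 fresh arrays (tolerance 1e-06), and values run from -11.2 to 13.6; the base 2 is GCRMA's usual scale and is not stated with the values. The number of arrays limits the precision. The limma p-values set a change against the spread between arrays within groups, pooled over the 5 groups and not taken from the 2 compared groups alone.

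Symbols came from the platform annotation and were updated through RefSeq (34741 of 34945 matched). Probe sets whose values had an SD below 0.5 and a correlation above 0.8 with the per-array median over those 20% that varied least were left out as background. Each gene is represented by its remaining probe set with the largest SD over all 15 arrays. One limma model (limma 3.58.1 in R 4.3.3) was fitted to the 15 arrays with a term for each group (10 residual degrees of freedom), and p-values were adjusted by Benjamini-Hochberg over the 12423 genes; a call is an adjusted p below 0.05. The exact permutation test of 3 against 3 arrays cannot go below 0.1 and was not used. The procedure was tested on simulated data.

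The comparison, its 53 gene lists (45 functions, 8 cell types) and the tests were chosen with earlier results of these data known. Named genes were the 15 largest increases and decreases called with and without TCD_4h replicate 2 with groups that do not overlap, up to 6 called genes of each list with the largest change (or the gene with the lowest p), and a panel, 257 in all; the panel gene Gapdh could not be tested and is not among them. Other genes named beside a list, such as Sprr1b, were chosen after their values were seen. Lists overlap. Same-numbered TCD_4h and t0 arrays deviated together (r = 0.328, 0.247 and 0.274, against -0.281 to -0.00494 for other pairs); this comes from the data, since the labels do not say what a number marks. Alternatives were the 6 arrays alone, each of them left out, the replicate number as a block, other background filters, other rules for probe sets, centring on 16 reference genes, array weights and a robust trended eBayes step. Promoter windows were the 250 bases before the first listed start in RefSeq (GRCm38.p6). The CRE core TGACG, the AP-1 motif TGANTCA, the hypoxia response core ACGTG, the metal response core TGCNCNC, the E-box CACGTG and, by name, the CArG and NF-kB boxes were searched for on both strands.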

Additional observations from a re-analysis of the deposited data

Results flagged for a closer look

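Of the 257 genes named by rule, 28 differed between aggregates and monolayers of the same age in the test of that difference. The share over all genes tested was 6.17%, and the change of these 28 from fresh cells was not the same in the 2 vessels. That test included TCD_4h replicate 2 and was not repeated without it. The array gave the lowest TCD_4h value for Irs1, Inhbe, Hspa1b and Vim, so the size of their differences rests partly on it. Higher in RWV_4h than in TCD_4h, by log2 differences in parentheses, were Fgf21 (5.06), Txnip (4.14), Ccnf (3.69), the chaperone gene Hspa1b (3.08), Irs1 (2.94), Inhbe (2.61), Cbr3 (2.61), Mycl (2.33), the protease gene Ctsb (1.68), Foxa2 (1.61), Psat1 (1.08), Mtf1 (0.94), Ern1 (0.74), Nat2 (0.60), Gars (0.56) and Gar1 (0.55). Lower in RWV_4h were the hexokinase gene Hk2 (-2.85), tissue factor F3 (-2.75), Vim (-2.69), Tmsb10 (-2.37), Pkm (-2.14), Slc2a1 (-2.13), Hbegf (-1.88), Fos (-1.79), Ptpn2 (-1.73), Fhl2 (-1.56), Vegfa (-0.94) and Cldn14 (-0.83).

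Between 24 and 4 h in monolayer, 17 of the 30 genes with the largest changes at 4 h differed in the test of that difference. Over all genes tested the share was 55.6%, so these genes differed about as often as others. This test, too, was run only with TCD_4h replicate 2 included. Higher at 24 h than at 4 h were Zmynd8 (5.02), Lgals3 (4.15), Tmsb10 (3.40), Lce1d (3.25), Anxa2 (3.04), Cd68 (2.63), Mtmr4 (2.22), Inhbe (2.01), Sprr1a (1.90), Cd14 (1.51), Dusp10 (1.31) and Psat1 (1.30). Lower at 24 h were Il1rn (-4.21), Klf15 (-4.16), Ptpn2 (-3.07), Ankrd37 (-2.15) and Tmem25 (-0.93). Zmynd8, Mtmr4 and Inhbe had been lower than in fresh cells at 4 h, so their 24 h values lay nearer to the fresh ones or above them.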

How the results depend on the processing

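Against 3164 calls, of which 1185 were higher and 1979 lower (802 and 1024 at 2-fold or more), leaving out single arrays gave 2544 to 3081 calls, with 1029 to 1469 higher, 1468 to 2027 lower, 732 to 963 higher at 2-fold and 774 to 1158 lower at 2-fold. The 6 arrays alone gave 1532 calls, 705 higher, 827 lower and 543 lower at 2-fold. The mean of the probe sets of a gene gave 3133 calls, but only 647 higher and 686 lower at 2-fold or more. Centring on reference genes gave 3084 lower and moved the median change of all genes to -0.215, in place of -0.0521. The higher share of calls, 37.5%, was 49.2% without TCD_4h replicate 2, 48% with no background filter and 24.5% after that centring, which also turned the sign of the list medians of the NRF2 (0.0939 to -0.0695) and YAP lists (0.089 to -0.0744). Of the 257 named genes, 248 were called, 146 of them in each of the 17 alternatives that tested them, since leaving out probe sets of shared sequence left some untested. The direction reversed for Pde4b (0.37 with the mean of its probe sets, 3.47 with the probe set chosen on the 9 other arrays), Egfr (0.030) and Mt1 (0.13) with the mean, Socs2 (2.19), Map1lc3b (0.44), Mtf1 (0.0056) and Znrf3 (0.18) with the probe set chosen on the 9 other arrays, and Hnf4a (-0.90) without probe sets of shared sequence. The cause was not tested. The replicate number as a block gave 3438 calls. Among the named genes it lost Gbe1 (adjusted p = 0.0637) and Psmb6 (0.0534) in limma, gained Cxcl1, Proc and Sc5d, and changed no other call. The probe set chosen on the 9 other arrays, and the block with TCD_4h replicate 2 left out, were chosen after seeing the data. Values hold no signal level, so what signal over background limits was not assessed gene by gene.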

Other observations

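Gene families, picked by symbol after their values were seen and so given without a test, moved unequally, and some had shares near those of all genes. Of 76 mitochondrial ribosomal protein genes (Mrpl, Mrps), 2 were called higher and 22 lower, 28.9% against 15.9% of all genes, with 4 higher and 17 lower without TCD_4h replicate 2. Of 52 cytosolic ribosomal protein genes, 5 were higher, 9.62% against 9.54% of all genes, and none lower, with a median of 0.125. The Ddx helicases, RNA-remodelling enzymes, had 13 of 34 higher (38.2%) and 2 lower. Of 22 Fox transcription factor genes, 8 were lower (36.4%) and 3 higher, and of 9 Arid chromatin genes 5 were lower (55.6%) and 1 higher. Zfp zinc finger genes had 51 of 276 lower (18.5%, near the 15.9% of all genes) and 16 higher (5.8%, against 9.54%).

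Among large increases outside every list were genes of lipid and ketone sensing and of innate alarm, also chosen after their values were seen. Hilpda, a lipid droplet protein induced by hypoxia, increased by 6.67 (6.33, 7.37 and 6.79 in TCD_4h, -0.11, 0.61 and 0 in fresh cells). Hcar2, a receptor for hydroxybutyrate and niacin, increased by 6.64 (5.90, 6.33 and 6.70 in TCD_4h, 0, -1.03 and 0.03 in fresh cells) and was lower again at 24 h by a difference of -4.67. Il33, an alarm cytokine of the nucleus, increased by 6.35, and the bacterial lipoprotein receptor Tlr2 by 5.29. Gata6, an endoderm transcription factor, increased by 6.62 (7.35, 6.14 and 6.52 in TCD_4h, 0.19, 0 and -0.032 in fresh cells), and the transcription factor Ets2 by 5.65 (limma adjusted p = 6.17e-10). The monolayer values of all 6 genes lay above the fresh ones, which was a condition of their choice.

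The remaining lists are given beside the shares of all genes called, 9.54% higher and 15.9% lower. Lysosome and autophagy genes had 8 of 33 higher and 3 lower, with 4 or 5 higher when TCD_4h replicate 1, TCD_4h replicate 3, t0 replicate 2 or t0 replicate 3 was left out and 6 lower without TCD_4h replicate 1. Fatty acid oxidation genes had 3 of 31 higher and 5 lower (3 lower without t0 replicate 2). Conjugation enzymes had 0 of 33 higher and 3 lower (5 lower without TCD_4h replicate 3 and 6 with the replicate number as a block), hepatocyte transporters 3 of 33 higher and 1 lower, and gluconeogenesis and glycogen genes 2 of 25 higher and 4 lower (2 lower without TCD_4h replicate 2, TCD_4h replicate 3 or t0 replicate 1). Periportal genes had 3 of 20 higher and 3 lower, with 0 to 2 lower when any array was left out. Fetal liver genes had 4 of 17 higher and 0 lower, and erythroid and platelet markers 1 of 8 lower.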
